A study of Mus musculus with 4 samples.

Results

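Neuronal RNA splicing and binding factors were followed here across limb and brain of mouse embryos with and without Rest. The set held 10 genes, Celf3, Celf4, Srrm4, Rbfox3, Nova1, Nova2, Ptbp2, Elavl2, Elavl3 and Elavl4, taken by name as neuronal RNA-binding proteins. Matching by gene name, older name or accession gave 18 probes for 9 of the 10 genes, out of 41174 probes for 27629 genes or unnamed transcripts. No probe matched Nova2, so its own level is not analysed here. Rbfox3 stood in the array design under an earlier locus name, D11Bwg0517e, and was matched through its accession.

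The 4 samples were limb of Rest conditional knockout (CKO) embryos, limb of wild type (WT) embryos, CKO brain and WT brain, all at E13.5, in mice of 129 and C57BL/6 background. Rest was ablated in utero in mice with floxed Rest and a doxycycline-inducible Cre, and doxycycline from E8.5 to E13.5 is recorded for all 4 samples, WT included. The sources used here name neither the promoter that drives Cre nor the number of embryos behind each RNA. Each group had 1 array of Cy3-labelled RNA, so no value has a replicate and no test of CKO against WT is possible inside a tissue.

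Values are log2 probe signals on a scale where 0 is the 75th percentile of the array, and a difference of 1 is 2-fold. Signals of different probes are not compared with each other. Differences of at least 2-fold were called by size, and the only error measured is technical. Across 245 probes printed 10 times, the CKO minus WT difference had an SD between spots of 0.31 for dim probes, 0.060 for middling ones and 0.029 for bright ones in limb, and 0.31, 0.060 and 0.026 in brain. A probe that the scanner software did not call well above background has only an upper bound there, and the difference is then written "at least". Spots well above background made up 68.6% on CKO limb, 62.7% on WT limb, 70.7% on CKO brain and 64.5% on WT brain.

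As background, REST (also called NRSF) is a zinc finger repressor that binds a long DNA element near many neuronal genes and recruits corepressors outside the nervous system. Neurons use their own set of RNA-binding proteins to choose exons and to stabilise transcripts: CELF, RBFOX and NOVA proteins and SRRM4 act on exon choice, PTBP2 mostly represses exons, and the neuronal ELAVL (Hu) proteins bind uridine-rich RNA. In developing neurons, PTBP2 takes over from its relative PTBP1, and SRRM4 brings about the inclusion of very short exons.

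Rest itself was lower in the CKO sample of each tissue by all 3 of its probes. The probe at chr5:77709928-77709987 (mm9) had a log2 signal of -1.56 in CKO limb, against 2.41 in WT limb, and of -3.73 in CKO brain, against -0.16 in WT brain. CKO thus held 6.38% of the WT signal in limb and 8.39% in brain by that probe. The probe at chr5:77715162-77715221 kept more, 24.8% in limb and 53.3% in brain. The probe at chr5:77711857-77711916 kept 5.83% in limb and was not well above background in CKO brain, where it was at least 6.60-fold lower. Where the loxP sites lie in Rest was not stated in the labels.

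The labelled tissues carried their defining markers. All 13 neural progenitor markers on the array were above background in CKO brain and in WT brain, against 9 in CKO limb and 8 in WT limb. Skeletal muscle markers summed to 490 times the 75th percentile signal in CKO limb and 363 in WT limb, against 7.75 in CKO brain and 6.97 in WT brain. The CKO brain sample also held cartilage transcripts: 18 of 18 cartilage markers were above background there, against 12 in WT brain, with summed signals of 31.6 in CKO brain and 12.5 in WT brain. Inner ear markers summed to 6.78 in CKO brain and 0.398 in WT brain, and 4 of 14 sensory ganglion markers compared were at least 2-fold lower in CKO brain.

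In limb, 6 of the 9 genes were at least 2-fold higher in CKO than in WT, namely Celf3, Celf4, Srrm4, Rbfox3, Elavl2 and Elavl3, and none was 2-fold lower. Of all 18451 genes with a limb value, 2.49% were higher by 2-fold or more and 2.16% lower. At a size of 1.5-fold, Elavl4 joined them at 1.68-fold, beside 4.77% of all genes higher and 4.73% lower. Nova1 differed by 0.35 log2 and Ptbp2 by -0.17 log2. The median difference over the 9 genes was 1.75 log2, beside -0.02 over all genes compared. In brain, where all 9 genes stood above their limb levels in both genotypes, no gene of the set reached 2-fold in either direction, beside 1.37% of 18946 genes higher and 1.22% lower. None reached 1.5-fold by its brightest probe either, beside 3.48% of genes higher and 1.98% lower. In bulk tissue, more expressing cells and more RNA per cell cannot be told apart.

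**Figure D1:**
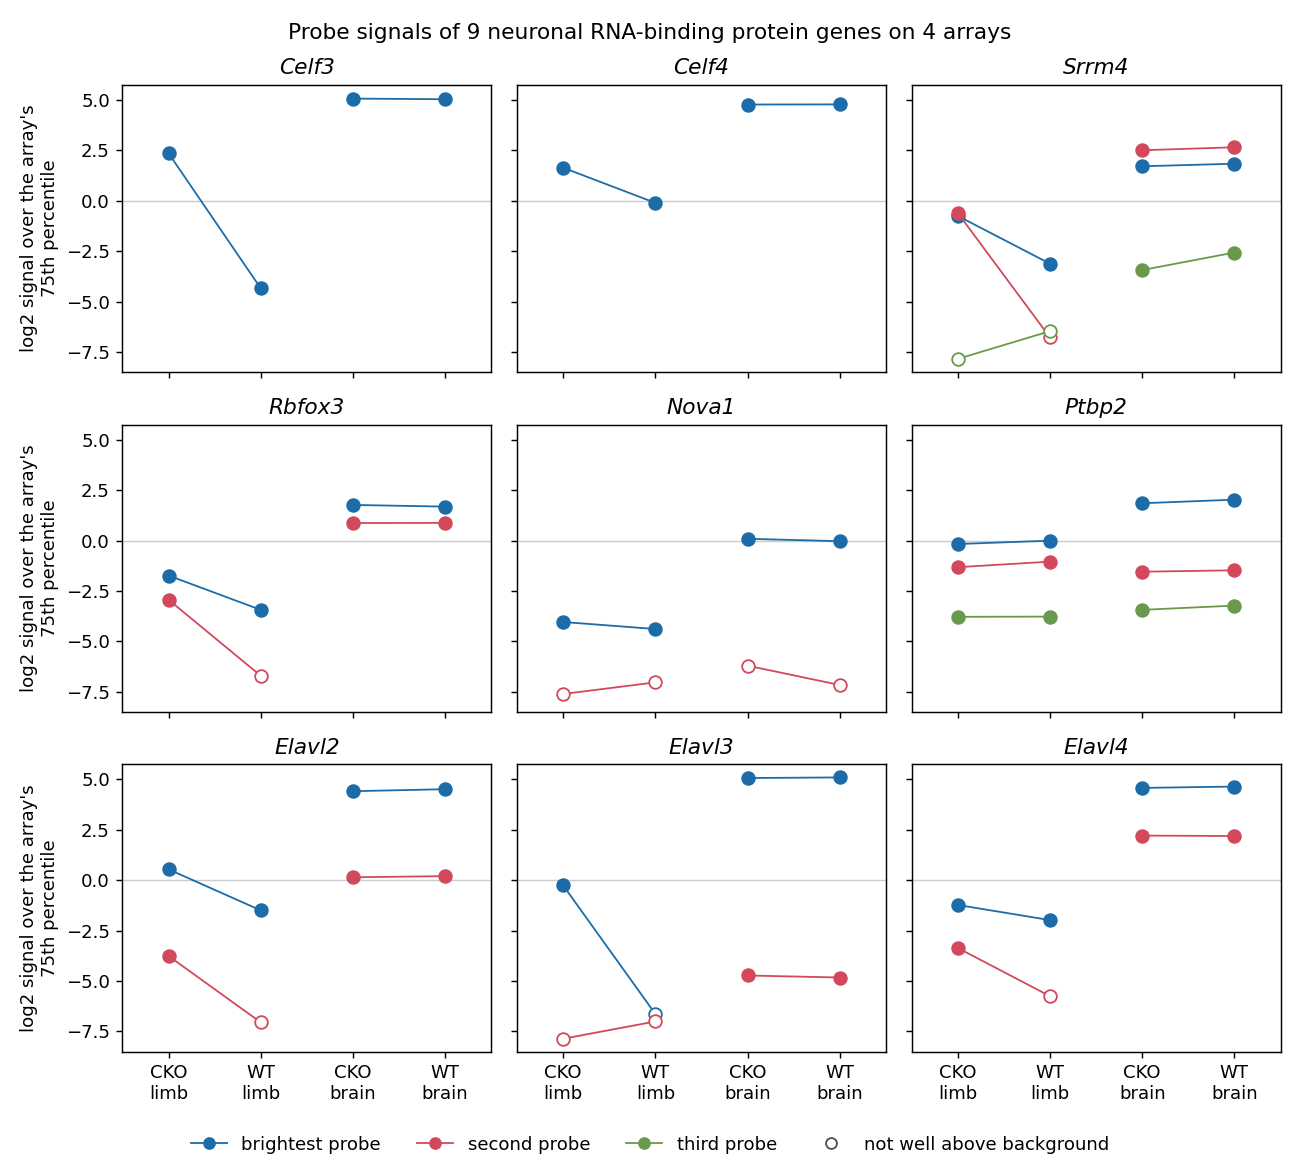
Log2 signal over the 75th percentile of the array (vertical axis) of all 18 probes of the 9 genes on the CKO limb, WT limb, CKO brain and WT brain arrays, 1 array each; filled points are well above background, open points are not, and lines join CKO and WT of a tissue. The limb line of the brightest probe falls toward WT for Celf3, Celf4, Srrm4, Rbfox3, Elavl2, Elavl3 and Elavl4 and runs nearly level for Nova1 and Ptbp2, and the brain lines of the brightest probes run nearly level for all 9 genes. The limb lines of the dimmest Srrm4, Elavl3 and Nova1 probes join open points and give no difference.

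The CELF proteins regulate exon choice and translation, and Celf3 and Celf4 are among their brain-enriched members. Celf3 had a log2 signal of 2.36 in CKO limb, against -4.35 in WT limb, and of 5.07 in CKO brain, against 5.04 in WT brain. In WT limb its raw signal was 38.2 units and just above background, while in CKO limb it was 4751. That is a difference of 6.70 log2, or 104-fold, beside 0.03 log2 in brain. Among the 16672 genes measured on both limb arrays, Celf3 held rank 4 by the size of its increase in CKO. Its probe lies at chr3:94295991-94296049 (mm9).

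Celf4 was already present in WT limb. It had 1.64 in CKO limb, against -0.10 in WT limb, and 4.78 in CKO brain, against 4.79 in WT brain. The limb difference of 1.75 log2 (3.35-fold) is many times the spot SD of 0.060, and the brain difference of -0.01 is within the spot SD of 0.026.

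Srrm4 (nSR100) is the serine/arginine-rich factor that neurons need to include microexons. Its brightest probe is shown because its letters meet across an exon boundary, which makes it a readout of spliced RNA: the 60 bases of the probe lie over 1871 bases of the genome, at chr5:116925240-116927110 (mm9, minus strand).
Srrm4 probe: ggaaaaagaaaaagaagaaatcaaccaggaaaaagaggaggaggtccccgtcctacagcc
That probe had a log2 signal of -0.75 in CKO limb, against -3.12 in WT limb, and of 1.71 in CKO brain, against 1.84 in WT brain. The limb difference was 2.37 log2, or 5.18-fold. A second probe at chr5:116889300-116889359 had -0.61 in CKO limb and was not well above background in WT limb, a difference of at least 4.34 log2. Both probes put CKO limb far above WT limb and set CKO brain slightly below WT brain, by 0.13 and 0.15 log2. The third probe was dark in both limbs and had -3.44 in CKO brain, against -2.57 in WT brain, the largest brain difference among the probes of the set at 1.83-fold.

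Rbfox3 encodes the nuclear antigen NeuN, which binds GCAUG in introns and marks most mature neurons. Of its probes, the one shown crosses an exon boundary and spans 176 bases, at chr11:118358364-118358539 (mm9, minus strand).
Rbfox3 probe: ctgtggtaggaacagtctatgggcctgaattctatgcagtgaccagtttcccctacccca
This probe had -2.94 in CKO limb and was not well above background in WT limb, which makes it at least 2.01 log2 higher in CKO. In brain it had 0.87 in CKO and 0.88 in WT. The brighter probe, at chr11:118351869-118351928, had -1.74 in CKO limb, against -3.44 in WT limb, and 1.77 in CKO brain, against 1.68 in WT brain. Its limb difference was 1.70 log2 (3.25-fold), so both probes placed Rbfox3 higher in CKO limb.

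Nova1, first described as an autoantigen and known for binding clusters of YCAY in neuronal transcripts, stayed low in limb. It had -4.04 in CKO limb, against -4.39 in WT limb, and 0.09 in CKO brain, against -0.03 in WT brain. The limb difference of 0.35 log2 is close to the spot SD of 0.31 for probes this dim. Its other probe was not well above background on any of the 4 arrays.

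Ptbp2, the neuronal paralogue of the polypyrimidine tract binding protein, differed least between genotypes in limb. Its brightest probe, at chr3:119422477-119422535 (mm9), had -0.17 in CKO limb, against -0.01 in WT limb, and 1.85 in CKO brain, against 2.03 in WT brain. The differences were -0.17 log2 in limb and -0.18 log2 in brain. Its other probes gave -0.27 and -0.01 in limb, and -0.07 and -0.21 in brain. The 3 probes disagreed between tissues: WT brain over WT limb was 2.04 log2 by the brightest, -0.43 by the second, at chr3:119441900-119441959, and 0.55 by the third, which crosses an exon boundary.

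The neuronal ELAVL genes split by size in limb. Elavl2 (HuB) had 0.54 in CKO limb, against -1.50 in WT limb, and 4.42 in CKO brain, against 4.52 in WT brain. That is 2.04 log2 (4.10-fold) higher in CKO limb, and a second probe, dark in WT limb, was at least 1.19 log2 higher.

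Elavl3 (HuC), a gene used as a marker of newly born neurons, had -0.26 in CKO limb and was not well above background in WT limb. The difference is at least 4.69 log2, or 25.8-fold, in the main processing. The size of this bound depends on the processing, and with normexp background correction it was 3.19 log2. In brain it had 5.07 in CKO and 5.10 in WT. Its second probe was dark in both limbs and gave no limb value.

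Elavl4 (HuD), which stabilises transcripts of growing axons, differed least of the 3 genes by its brightest probe. It had -1.23 in CKO limb, against -1.98 in WT limb, and 4.58 in CKO brain, against 4.65 in WT brain. The limb difference of 0.75 log2 is 1.68-fold and below the 2-fold size. Its second probe had -3.36 in CKO limb and was dark in WT limb, at least 1.59 log2 higher in CKO, so the probes differ on whether Elavl4 passes 2-fold. In brain the second probe had 2.22 in CKO and 2.19 in WT.

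Over single probes, 15 of the 18 had a limb value, and in 10 of these CKO exceeded WT by 2-fold or more, 5 of them as bounds. None was 2-fold lower. In every gene with a further probe compared in limb, namely Srrm4, Rbfox3, Ptbp2, Elavl2 and Elavl4, the further probes pointed the same way as the brightest. Only those of Ptbp2 were measured on both limb arrays. Those of Srrm4, Rbfox3, Elavl2 and Elavl4 were bounds, with WT limb not well above background. Such a bound cannot point to a lower CKO signal, and probes dark in both limbs were left out. The shared direction in those genes was thus largely fixed by the detection rule. In brain, 17 probes had a value, and 1, the dim Srrm4 probe, differed by 1.5-fold or more.

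**Figure D2:**
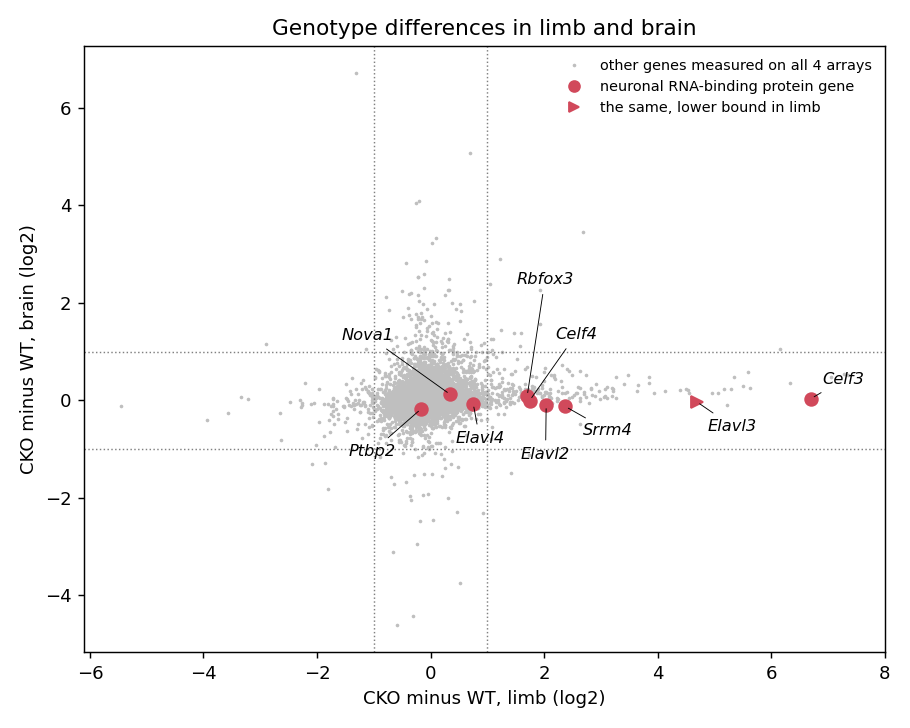
CKO minus WT log2 difference in limb (horizontal axis) against that in brain (vertical axis) for 15632 genes measured on all 4 arrays (grey) and the 9 neuronal RNA-binding protein genes (red, brightest probe; the triangle for Elavl3 is a lower bound in limb). Dotted lines mark 2-fold; the 9 genes spread from -0.17 to 6.70 along the limb axis and lie between -0.18 and 0.12 on the brain axis.

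By its brightest probe, each of the 9 genes was at least 2-fold higher in brain than in limb in both genotypes; with the mean of all probes Ptbp2 was not, at 0.72 log2 in WT and 0.71 in CKO. In WT, brain over limb was 9.39 log2 for Celf3, 6.63 for Elavl4, 6.02 for Elavl2, 5.12 for Rbfox3, 4.96 for Srrm4, 4.89 for Celf4, 4.36 for Nova1 and 2.04 for Ptbp2, and at least 10.05 for Elavl3. Over all genes compared, 15.8% were at least 2-fold higher in WT brain and 18.9% lower. In CKO, where 15.1% of genes were at least 2-fold higher in brain and 16.9% lower, the tissues stood closer for most of the set. Brain over limb was then 2.72 log2 for Celf3, 3.14 for Celf4, 2.46 for Srrm4, 3.51 for Rbfox3, 3.88 for Elavl2 and 5.33 for Elavl3. It was 5.81 for Elavl4, 4.13 for Nova1 and 2.02 for Ptbp2, within 1 log2 of their WT values.

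The signals in CKO limb remained well below brain. Each probe can be set against its own signal in WT brain, after scaling. On that scale Srrm4 was at 16.6% in CKO limb and 3.21% in WT limb, and Celf3 at 15.6% in CKO limb and 0.149% in WT limb. Celf4 was at 11.3% in CKO limb and 3.37% in WT limb, and Rbfox3 at 9.32% in CKO limb and 2.87% in WT limb. These 4 shares lay between 9.32% and 16.6% in CKO limb. In WT limb Celf3 alone stood apart, with a raw signal of 38.2 units, just above background. The shares also depend on the probe. In CKO limb the second Srrm4 probe was at 10.4% and the second Rbfox3 probe at 7.09%, and neither was well above background in WT limb.

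The ELAVL genes and Nova1 had lower shares in CKO limb than those 4 genes. Elavl2 was at 6.34% in CKO limb and 1.55% in WT limb, and Elavl4 at 1.70% in CKO limb and 1.01% in WT limb. Elavl3 was at 2.43% in CKO limb and not well above background in WT limb. Nova1 was at 6.20% in CKO limb and 4.87% in WT limb. Ptbp2, which differed little between genotypes, had the highest share in both limbs, 21.8% in CKO and 24.4% in WT.

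**Figure D3:**
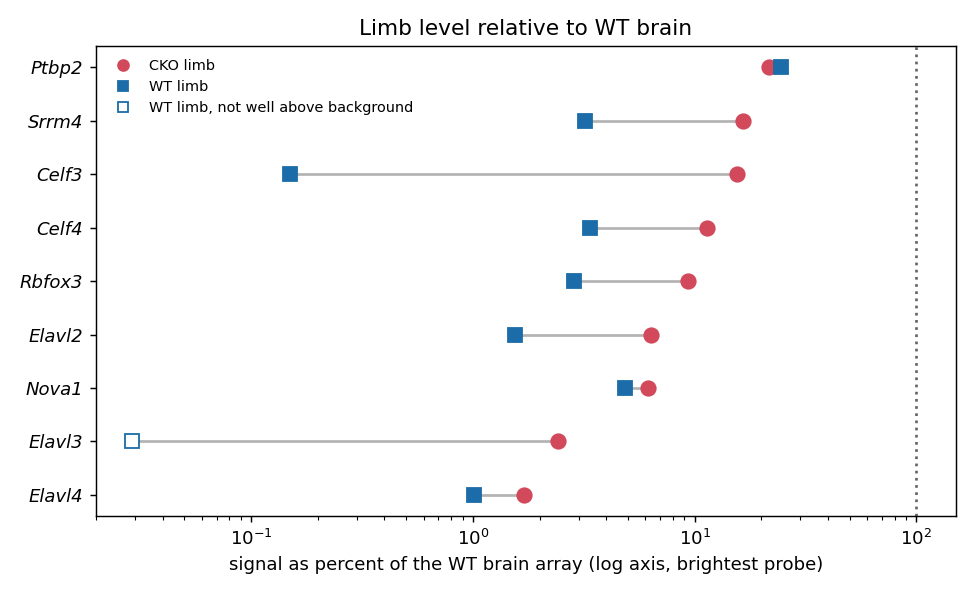
Signal of the brightest probe of each gene in CKO limb (red circles) and WT limb (blue squares; open where not well above background) as a percent of the same probe's signal in WT brain, on a log axis, 1 array each; the dotted line is 100%. CKO limb lies between 1.70% and 21.8% for the 9 genes, with a median of 9.32%.

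Both tissues were also fitted together in limma, with genotype and tissue as terms, on the 15630 genes that every array measured above background and below saturation. This fit asks for a like genotype difference in both tissues and leaves 1 residual degree of freedom. No gene passed an adjusted p of 0.05 (Benjamini-Hochberg) for genotype, of the set or otherwise, while 984 had an unadjusted p under 0.05 and the smallest adjusted p was 0.66. Celf3, for instance, had a mean genotype difference of 3.37 log2 with a standard error of 2.09, the mean of 6.70 in limb and 0.03 in brain (limma adjusted p = 0.66). Elavl3, dark in WT limb, is not in this fit.

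For tissue, 7 of the 8 genes in the fit were higher in brain, beside 32.2% of all genes higher and 34.4% lower. They were Nova1 by 4.25 log2 (standard error 0.089, limma adjusted p = 0.0057), Ptbp2 by 2.03 (standard error 0.053, limma adjusted p = 0.0057), Elavl4 by 6.22 (standard error 0.26, limma adjusted p = 0.0061), Rbfox3 by 4.32 (standard error 0.51, limma adjusted p = 0.015), Elavl2 by 4.95 (standard error 0.67, limma adjusted p = 0.019), Celf4 by 4.01 (standard error 0.55, limma adjusted p = 0.019) and Srrm4 by 3.71 (standard error 0.79, limma adjusted p = 0.041). Celf3, at 6.05 log2 with a standard error of 2.09, did not pass (limma adjusted p = 0.10). Nova1 and Ptbp2, whose limb levels hardly differed between genotypes, had the smallest standard errors. With 1 array per group, the residual of a gene in this fit is the change of its tissue difference with genotype. For Celf3 brain over limb was 9.39 log2 in WT and 2.72 in CKO. The standard errors and p values of this fit thus hold no measure of the spread between samples of a group.

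The closest relatives in the same families are mostly expressed in many tissues, and 2 of 12 were at least 2-fold higher in CKO limb, with none lower. Celf5, a brain CELF protein, had -0.31 in CKO limb, against -2.84 in WT limb, which is 5.76-fold. Celf6, also a neural CELF protein, had 1.45 in CKO limb and was not well above background in WT limb, a difference of at least 6.40 log2. With Celf3 and Celf4, these make 4 CELF genes above 2-fold in limb.

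Celf1 and Celf2, which are expressed outside the brain, differed by -0.08 and -0.06 log2 in limb. Srrm3, the paralogue of Srrm4, was 1.70-fold higher in CKO limb, with 2.67 in CKO and 1.90 in WT, and Rbfox1 was 1.65-fold higher, with 0.09 in CKO and -0.63 in WT. Srrm1 differed by 0.21 log2 and Srrm2 by -0.09. Rbfox2 differed by 0.13 log2, Ptbp1 by -0.12, Ptbp3 by -0.17 and Elavl1, the ubiquitous HuR, by -0.10. The median of the 12 relatives was 0.03 log2 in limb, and none reached 1.5-fold in brain.

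By their brightest probes, Ptbp1 and Ptbp2 ran in opposite directions between tissues. The second Ptbp2 probe did not, with brain minus limb at -0.43 log2 in WT and -0.22 in CKO. The third gave 0.55 in WT and 0.35 in CKO. Ptbp1, which represses neuronal exons in other cells, was lower in brain by 1.46 log2 (standard error 0.055, limma adjusted p = 0.0058) in the fit above. Neither gene differed by 1.5-fold between genotypes in limb or in brain.

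Among 52 other RNA-binding proteins with roles in neural or developing tissue, 4 were at least 2-fold higher in CKO limb and none lower. Pcbp3, a poly(C)-binding protein, had 0.10 in CKO limb, against -1.49 in WT limb, or 3.01-fold. Lin28b, which blocks the maturation of let-7 microRNAs, had -2.15 in CKO limb, against -3.35 in WT limb, or 2.30-fold. Esrp1 and Esrp2, the epithelial splicing regulators, were 1.57-fold and 1.51-fold lower in CKO limb. The median of the list was 0.01 log2 in limb and -0.02 in brain.

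The general splicing machinery differed little. All 53 genes of the core list, which holds spliceosome components and common splicing factors, lay between -0.24 and 0.19 log2 in limb and between -0.21 and 0.14 in brain. None reached 1.5-fold in either tissue.

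Of 40 genes whose transcripts carry exons regulated by these proteins, 39 were compared in limb and 4 were at least 2-fold higher in CKO, with none lower. Camk2b was 1.83-fold, Nrxn2 1.71-fold and Dab1 1.55-fold higher in CKO limb. These are levels of whole transcripts; the inclusion of single exons was not analysed here. The median of the list was 0.02 log2 in limb and -0.04 in brain.

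**Figure D4:**
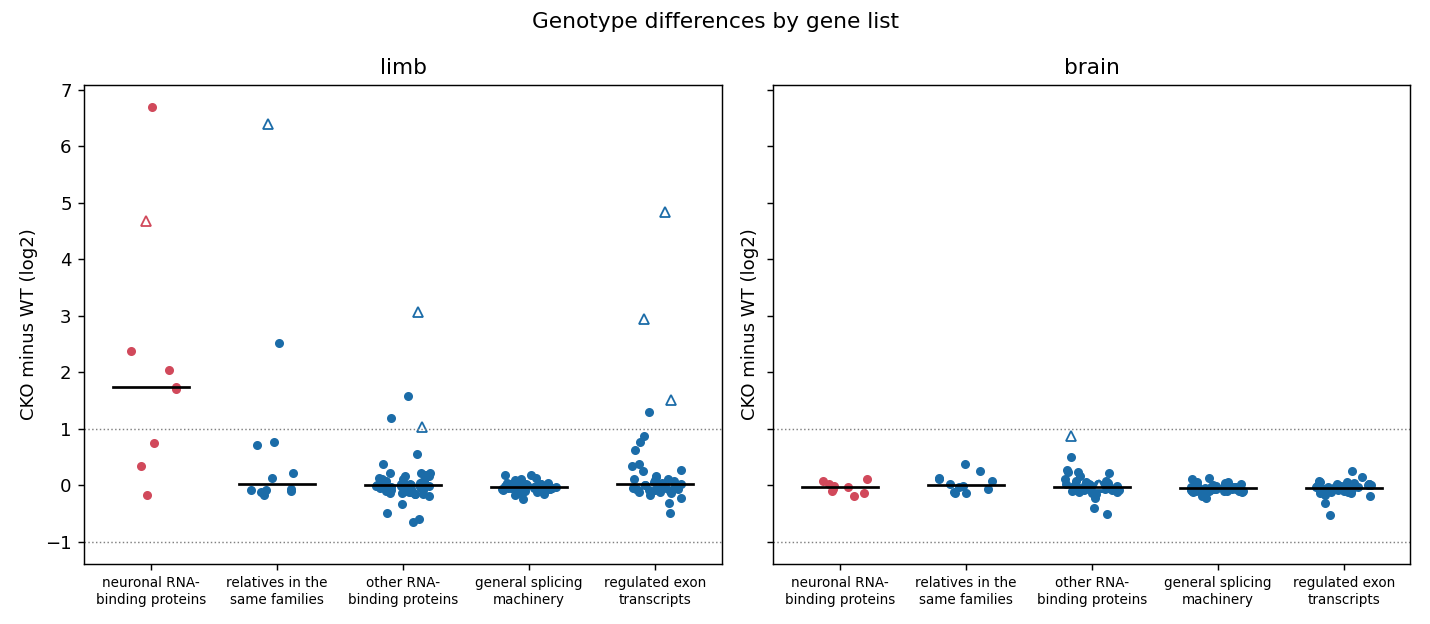
CKO minus WT log2 difference of each gene (points; triangles are bounds) in limb (left) and brain (right) for the 9 neuronal RNA-binding protein genes (red) and 4 comparison lists (blue); horizontal bars are medians and dotted lines mark 2-fold. In limb the 9 genes have a median of 1.75 and the core splicing genes one of -0.02, and in brain each list has its median within 0.06 of 0.

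Markers of neurons were also higher in CKO limb. Of 19 general neuronal markers, 10 were at least 2-fold higher in CKO limb and none lower, among them Crmp1 (9.59-fold), Stmn2 (7.15-fold), Tubb3 (6.19-fold) and Nefm (3.90-fold). Their summed signal was 73.9 times the 75th percentile in CKO limb and 34.4 in WT limb. The defining markers were not at 0 in WT limb, where 16 of the 19 were above background, and Uchl1, Gap43, Ncam1 and Mapt differed by no more than 0.15 log2.

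Markers of nervous tissue other than neurons did not differ by 2-fold in limb. None of 9 neural progenitor markers compared, none of 10 sensory ganglion markers and none of 11 Schwann cell and neural crest markers was at least 2-fold higher or lower in CKO limb. Endocrine secretory genes did: 8 of 12 compared were at least 2-fold higher in CKO limb, with summed signals of 46.7 in CKO and 5.52 in WT. Only 5 of the 12 were measured on both limb arrays. The others were bounds, with WT limb not well above background, and such a bound cannot point to a lower CKO signal. Erythroid markers summed to 344 in CKO limb and 682 in WT limb. The part of any of these cell types in the result was not tested.

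By the distance between the 4 log2 values after each gene's own mean was removed, the nearest genes among 15629 were found for the 8 members measured on all 4 arrays, which leaves out Elavl3. Celf3 lay nearest to Chgb, Ncan and Fbll1 (distances of 1.07 to 1.42 log2), Srrm4 to Adgrb1, Rgs7 and Crb2 (0.22 to 0.36), and Rbfox3 to Hoxb5, Cbln1 and Jph3 (0.12 to 0.28). Celf4 lay nearest to Nxph1, Adcyap1r1 and Hoxb5 at 0.24 log2 each, so Hoxb5 was near to both Rbfox3 and Celf4. Celf3 had no gene within 1 log2 of its pattern.

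Elavl2 lay nearest to Dnajc6, Ctnna2 and Celf5 (0.23 to 0.38), and Elavl4 to Gng3, Tagln3 and Mapk10 (0.17 to 0.30). Nova1 lay nearest to Snurf, Cend1 and Septin3 (0.034 to 0.15), and Ptbp2 to Ypel1, Xk and Sestd1 (0.068 to 0.11). Each distance rests on 4 arrays.

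The genes next to the members on the chromosome were mostly level. Of 40 neighbouring protein-coding genes on the array, those of Nova2 included, 33 were compared in limb, with a median of 0.02 log2, with 2 higher and 2 lower in CKO by 2-fold or more. Riiad1, beside Celf3, was 1.69 log2 higher in CKO limb and 0.68 higher in CKO brain, and Nrcam, near Nova1, was 1.19 higher in limb. Dmrta2, beside Elavl4, was lower in CKO limb by a log2 difference of -3.56, and Rit2, near Celf4, by -1.06.

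The start sites of the genes were searched for the letters of the element that REST binds, whose arms are CAGCACC on the left and GGACAGC on the right. Windows of 250 bases before to 50 after each start (RefSeq, GRCm38.p6) were read on both strands, 23 windows for 9 of the 10 genes. The whole element with 2 bases between the arms stood in 0.0213% of 32851 windows of all genes, and in none of these 23. The left arm stood in 7.14% of all windows and the right arm in 6.56%. Among the set, Ptbp2 alone held a complete arm, the right one on the reverse strand, 175 bases before its start.

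Without the last base, the left arm CAGCAC stood in 20.2% of all windows and the right arm GGACAG in 22.2%; each of these shorter words lies within its arm. Counted by gene, they stood in 22.5% and 24.7% of 27025 genes. In the set, CAGCAC was found for Celf3, Elavl2 and Elavl4, and GGACAG for Celf3, Elavl2 and Ptbp2. The set had 23 windows for 9 genes, against 32851 windows for 27025 genes. Its genes thus had more windows each in which to hold a match, and the shares by gene are not a like comparison. The 250 bases before 1 annotated start, chosen because a match falls within them, are shown for 1 gene that differed strongly in limb. The same is shown for 1 gene that differed moderately and 1 that did not. Matched letters are in capitals, read here as their reverse complement. The stretches are chr3:94484108-94484357 (plus strand) for Celf3, chr4:91376471-91376720 (minus strand) for Elavl2 and chr3:119783389-119783638 (minus strand) for Ptbp2, all in GRCm38.p6.
Celf3 promoter: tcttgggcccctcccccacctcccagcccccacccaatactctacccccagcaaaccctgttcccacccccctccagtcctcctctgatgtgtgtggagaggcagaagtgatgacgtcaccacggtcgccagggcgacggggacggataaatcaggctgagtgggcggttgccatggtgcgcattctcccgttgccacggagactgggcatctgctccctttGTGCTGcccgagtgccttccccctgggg
Elavl2 promoter: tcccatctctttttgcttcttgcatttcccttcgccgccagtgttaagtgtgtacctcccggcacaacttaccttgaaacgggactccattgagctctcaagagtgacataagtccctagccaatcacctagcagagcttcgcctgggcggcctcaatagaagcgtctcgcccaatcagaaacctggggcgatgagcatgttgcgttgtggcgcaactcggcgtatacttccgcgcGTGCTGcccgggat
Ptbp2 promoter: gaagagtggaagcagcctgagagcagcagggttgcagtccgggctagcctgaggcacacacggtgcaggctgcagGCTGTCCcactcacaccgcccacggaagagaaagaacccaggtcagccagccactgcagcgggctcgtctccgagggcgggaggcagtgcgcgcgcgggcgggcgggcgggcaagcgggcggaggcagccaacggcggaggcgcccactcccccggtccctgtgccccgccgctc
In Celf3 the word lies 28 bases and in Elavl2 14 bases before the start used here. Measured from other annotated starts, the same letters lie at offsets of 0 and 3 in Celf3 and 12 in Elavl2, at or after the start. A match is only a run of letters in this window, and the arrays carry no measure of binding.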

How the data were processed

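Total RNA of 4 samples, 1 each of CKO limb, WT limb, CKO brain and WT brain, was hybridised to single-colour Agilent arrays. Per the submitters' processing notes, the authors used Agilent Feature Extraction 9.5.3.1 for quantification, and per the file headers the deposited intensities were background-subtracted and detrended within each array, on mm9 positions. The deposited series table holds the same intensities, to within 0.0071 log2.

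Control spots and flagged outlier spots were left out, log2 signals were set relative to the 75th percentile of their array, and the spots of each probe were averaged. A gene was represented by its brightest probe over the 4 arrays and compared where well above background on at least 1 array of the pair. A bound sets the bright array against the higher of the dim array's lowest signal well above background and the probe's own signal. Probes were named by accession (26925), symbol (5576) or synonym (893) through a RefSeq table, and 7780 kept the file's name.

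The members, gene lists and tests were chosen with earlier results of these data known. Named genes were all members and their family relatives, and from each other list up to 4 genes, measured on both arrays, that differed most and by 1.5-fold or more; others named (Uchl1, Gap43, Ncam1, Mapt) were chosen after their values were seen. limma 3.58.1 (R 4.3.3) fitted genotype and tissue. The same fit was run on simulated data over 15630 genes, with 50 genes given a genotype effect of each of -4, -2, 2 and 4 log2. That effect was set over both tissues, and 100% were recovered at every size, with 4 false calls. Every simulated gene was given the same spread. In the real fit the genotype standard error was 0.053 for Ptbp2 and 2.09 for Celf3. The recovery thus gives no measure of what the fit could find on these arrays. Recovery of a difference in limb alone, like that of Celf3 (6.70 log2 in limb, 0.03 in brain), was not tested. Summaries used Python 3.11.15, numpy 2.4.6 and pandas 2.3.3. Alternatives covered background correction, normalization, the probe used, the detection call, filters and the series table. The number of arrays, 1 per group, limits the precision.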

Additional observations from a re-analysis of the deposited data

Results flagged for a closer look

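For the brightest probes of 3 genes of the set the genotype difference ran in opposite directions in the tissues, higher in CKO limb and slightly lower in CKO brain, each by more than 2 spot SDs. The limb difference less the brain difference was 2.50 log2 for Srrm4, 2.14 for Elavl2 and 0.82 for Elavl4. The brain side was small, -0.13 log2 for Srrm4, -0.10 for Elavl2 and -0.07 for Elavl4, beside a spot SD of 0.026, which is technical and holds no difference between embryos. The second Elavl4 probe differed by 0.02 log2 in brain, with CKO the higher. With 1 array per group, the difference between tissues was not tested.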

How the results depend on the processing

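Under the 6 alternatives in background correction, scaling, probe, detection and source, no called difference among the 214 recomputed for the 9 genes changed sign, and 55 of the 214 moved by more than the spot SD. With normexp background correction the median of the 9 genes was 1.67 log2 for CKO minus WT limb, 4.77 for WT brain minus WT limb and 3.11 for CKO brain minus CKO limb. With the mean of all probes of a gene it was 6.10 for WT brain minus WT limb and 3.33 for CKO brain minus CKO limb; Elavl3 in limb was then at least 0.88 log2 higher in CKO, a bound that no longer reaches 2-fold, and Elavl4 was 1.57 log2 higher. Brain over limb was then 0.72 log2 for Ptbp2 in WT and 0.71 in CKO, so 8 of 9 genes in place of 9 passed 2-fold between tissues. Over the alternatives the limb difference ranged from 5.34 to 6.82 for Celf3, 1.10 to 2.74 for Rbfox3 and -0.11 to 0.36 for Nova1. The Elavl3 bound in limb ranged from 0.88 to 6.38 log2 and was 3.19 with normexp background correction. For WT brain minus WT limb the Elavl3 bound ranged from 5.09 to 11.7 log2. Requiring detection on both arrays leaves Elavl3 without a limb value. Without the filter on dim and saturated probes, the limma fit called 4097 of 27629 genes for genotype, 73 higher and 4024 lower in CKO, against 0 with it; the cause was not tested. Of 112 fit values of the members 4 lost their call for tissue: Srrm4 with the other detection flag (limma adjusted p = 0.062), and Srrm4 (0.092), Celf4 (0.051) and Elavl2 (0.051) without the filter. A detection filter on both arrays was not run for the fits, which already require all 4. No paired analysis was possible because each group had 1 array, and for the same reason no array could be left out. Dim probes, at a spot SD of 0.31 log2, limit what can be said of Nova1 and of the second probes in limb.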
